A study of Mus musculus with 12 samples.

Results

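Matrix metalloproteinases and their tissue inhibitors were followed through every library of a mouse study of Impdh2 deletion. The genes were chosen by symbol and not by a cut on measured values, although earlier results of these data were known. They are 7 Mmp genes (Mmp9, Mmp12, Mmp14, Mmp2, Mmp8, Mmp13 and Mmp19) and 3 Timp genes (Timp1, Timp2 and Timp3), which makes 10 of the 55401 gene identifiers in the culture data and 10 of the 51826 in the forelimb data. All 10 had a row in both.

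The study deleted Impdh2, which encodes an enzyme of guanine nucleotide synthesis, in either of 2 lineages and measured RNA by sequencing in 12 libraries, 2 in each of 6 groups. Forelimbs were taken from embryos at E12.5 that were wild type (WT) or had Impdh2 deleted in limb mesenchymal progenitors (Prx-cKO). The cultures came from the marrow of WT mice or of LysM-cKO mice, in which Impdh2 was deleted in myeloid cells. For 3 days they received supernatant of L929 cells as a source of M-CSF, equivalent to 20 ng/ml, and were then reseeded; the protocol then names 40 ng/ml of RANKL, the cytokine that drives osteoclast formation. The culture libraries are titled R40D3 or R0D3. All 8 carry the same cell type label (osteoclast) and the same treatment label, so R40D3 and R0D3 are used here as names only, and that R is a RANKL dose was not assumed. The lineages are read from the names Prx and LysM, usual drivers of Cre in limb mesenchyme and in myeloid cells, and the labels do not spell them out. The labels give neither the alleles nor the Cre status of the WT animals, no age or sex of the marrow donors, and nothing to say whether replicates were separate animals, litters or cultures. The p-values may therefore measure technical spread alone. A deletion driven in 1 lineage leaves Impdh2 intact in every other cell of a forelimb or a marrow culture.

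Impdh2 itself was at 22.3 and 28.2 CPM (counts scaled to a common library total) in the WT R0D3 libraries and at 7.36 and 7.03 CPM in LysM-cKO. The R40D3 libraries had 25.7 and 27.7 CPM (WT) against 7.72 and 8.38 CPM (LysM-cKO). The log2 change was −1.81 (SE 0.155) at R0D3 and −1.73 (SE 0.152) at R40D3, both lower in LysM-cKO, with adjusted p of 0.0323 and 0.0386 by edgeR's quasi-likelihood test. WT forelimbs had 260.4 and 272.3 CPM of Impdh2 and Prx-cKO forelimbs 169.7 and 199.4 CPM; the groups did not overlap, but the difference did not pass the same test (log2 −0.53, SE 0.155, adjusted p 0.443). Total counts ran from 16009146 to 19221865 in the cultures and from 28892215 to 69466572 in the forelimb. The test was run on 14030 genes in the cultures and 19987 in the forelimb, each gene was called at a Benjamini-Hochberg adjusted p under 0.05 over all of them, and every adjusted p in what follows comes from it unless another tool is named. The sum of 10 osteoclast markers, which include Acp5 and Ctsk, was 320.7 to 457.9 CPM in the 4 R0D3 libraries, with 1 to 3 of the 10 at 0 counts. In the 4 R40D3 libraries it was 8214 to 24820 CPM, with none at 0. The osteoclast label was therefore borne out by these markers in the R40D3 libraries and not in the R0D3 libraries. The sums of 8 macrophage markers overlapped between the cultures, at 7907 to 8826 CPM in R0D3 and 7256 to 8735 CPM in R40D3. Gene by gene, 7 of the 8 were lower at R40D3 in WT (median log2 difference −0.409) and 6 in LysM-cKO (−0.228). The test called 2 of the 8 lower in each genotype and none higher, against 5.52% and 3.15% of all genes called lower. In the forelimb, 6 limb mesenchyme markers summed to 1040 to 1563 CPM.

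Matrix metalloproteinases are zinc proteases that are made as inactive precursors and cut collagens, elastin and other proteins of the extracellular matrix. TIMPs bind active metalloproteinases tightly and block them, so the balance of both classes sets how much matrix is cut. In bone, Mmp9 is a well-known product of osteoclasts and Mmp13 of hypertrophic chondrocytes and osteoblasts, whereas Mmp12 takes its usual name, macrophage elastase, from the cell that makes most of it.

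Of the 10 genes, 3 lie in 1 Mmp gene cluster on chromosome 9. Positions here are from GENCODE M21 on GRCm38: Mmp13 at chr9:7272514-7283331, Mmp12 at chr9:7344381-7369499 and Mmp8 at chr9:7558456-7568485, all on the plus strand. Mmp9 is at chr2:164940780-164955850, Mmp14 at chr14:54431612-54445364, Mmp2 at chr8:92827291-92853420, Mmp19 at chr10:128790910-128800824 and Timp3 at chr10:86300372-86349506, also on the plus strand. Timp1 is at chrX:20870166-20874735 on the plus strand and Timp2 at chr11:118301069-118355740 on the minus strand. Where reads of overlapping genes were counted without strand, they could be shared. The exons of Mmp19 share 789 bases (22.3% of its exonic length) with Tmem198b, and those of Timp3 share 1733 bases (21.3%) with Syn3, in each case on the opposite strand. Tmem198b had 109 to 202 counts in the cultures and 665 to 2227 in the forelimb, and Syn3 had 2 to 8 and 52 to 255. Mmp12 shares 157 bases with Mmp1b, which had 0 counts in all 12 libraries.

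RefSeq promoters (GRCm38.p6) were matched for 7 of the 10 genes, with 8 start sites among them; Mmp9, Mmp2 and Mmp19 had no entry. The 120 bases just before the start are shown for genes that passed the test between R40D3 and R0D3 in the cultures, including Mmp27, the neighbour of Mmp8. Mmp14 was the gene that rose, and the other 4 belong to the chromosome 9 cluster. For Mmp12 both RefSeq starts are shown, and the first lies nearest the GENCODE start. All 6 windows are on the plus strand and are written 5′ to 3′. Capitals mark TGANTCA, the core letters bound by AP-1, the Fos and Jun factor family, which were searched on both strands from 250 bases before to 50 after each start.
Mmp14 (chr14:54431478-54431597): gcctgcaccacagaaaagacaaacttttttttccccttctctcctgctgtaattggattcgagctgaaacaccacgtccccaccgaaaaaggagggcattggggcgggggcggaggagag
Mmp13 (chr9:7272394-7272513): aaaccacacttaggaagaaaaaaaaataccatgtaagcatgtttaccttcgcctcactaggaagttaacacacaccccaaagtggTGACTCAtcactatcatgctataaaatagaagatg
Mmp12, first start (chr9:7344277-7344396): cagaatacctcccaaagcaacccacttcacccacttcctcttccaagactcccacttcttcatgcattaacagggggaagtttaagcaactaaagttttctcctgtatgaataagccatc
Mmp12, second start (chr9:7347254-7347373): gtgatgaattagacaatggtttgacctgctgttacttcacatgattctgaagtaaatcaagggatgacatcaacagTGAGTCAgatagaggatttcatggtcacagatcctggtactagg
Mmp8 (chr9:7558309-7558428): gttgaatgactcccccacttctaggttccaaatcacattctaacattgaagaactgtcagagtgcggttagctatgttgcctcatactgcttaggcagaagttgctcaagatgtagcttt
Mmp27 (chr9:7571276-7571395): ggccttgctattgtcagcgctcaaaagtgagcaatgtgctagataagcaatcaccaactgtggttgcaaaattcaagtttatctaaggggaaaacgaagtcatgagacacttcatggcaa
The motif was found in 2 of the 8 windows of the 10 genes. It starts 35 bases before the start of Mmp13 and 44 bases before the second start of Mmp12; it is not in the window of the first. Of 32851 mouse promoters of the same length, 7.81% hold it. A match describes the letters only.

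Between R0D3 and R40D3 the WT cultures moved from an Mmp profile led by Mmp12 to one led by Mmp9. Mmp9 and Mmp14 rose and Mmp12 and Mmp13 fell, so 4 of the 10 genes were called, against 16.9% of all genes tested (11.4% higher and 5.52% lower). In LysM-cKO cultures the same comparison called 5 of 10, against 10.1% of genes (6.99% higher and 3.15% lower): these 4, in the same directions, and Mmp8, which fell. The median log2 change over the 10 genes was −0.19 in WT and −0.28 in LysM-cKO, beside 0.01 in each genotype over all genes tested. In WT the 2 cultures did not overlap for 4 genes that were higher at R40D3 and 5 that were lower (32.9% and 29.2% of all genes were), and in LysM-cKO for 2 and 5 (27.3% and 22.5%). In bulk RNA, fewer cells of a type and less RNA per cell cannot be told apart, here and in what follows. With the replicate number as a block, 7 of 10 were called in WT, 2 higher and 5 lower (28.3% of all genes, 16.7% higher and 11.6% lower), and 6 in LysM-cKO (21.3%).

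**Figure D1:**
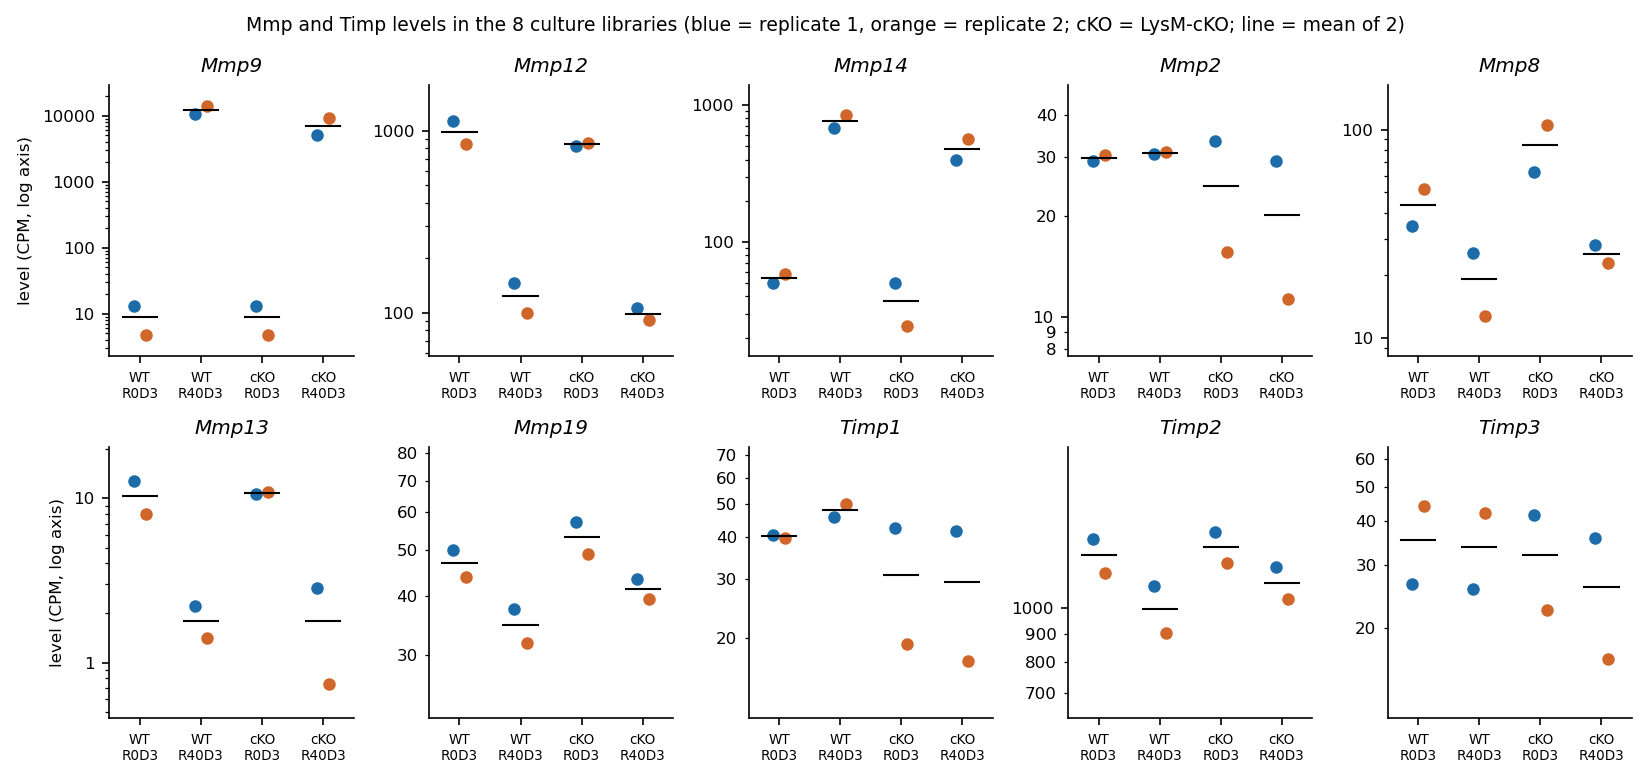
Level of each of the 10 genes (CPM, log axis) in the 8 culture libraries, by genotype and culture; points are libraries, coloured by replicate number, and lines are means of 2. Mmp9 and Mmp14 sit higher and Mmp12, Mmp13 and Mmp8 lower at R40D3 in both genotypes, and Mmp2, Timp1 and Timp3 are lowest in the replicate 2 libraries of LysM-cKO.

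Mmp9, gelatinase B, cuts denatured collagen and type IV collagen. It was at 13.2 and 4.79 CPM in the WT R0D3 libraries and at 10540 and 14180 CPM in WT R40D3. The LysM-cKO libraries held 13.1 and 4.73 CPM at R0D3 and 5057 and 9072 CPM at R40D3. Every R40D3 library lay far above every R0D3 library. The log2 rise was 10.41 (SE 0.745, a 1363-fold difference, adjusted p 0.000391) in WT and 9.62 (SE 0.725, 787.5-fold, adjusted p 0.000705) in LysM-cKO. The size of these folds rested on the low R0D3 values: without WT R0D3 replicate 1 the log2 rise was 11.33, and without WT R0D3 replicate 2 it was 9.87. The LysM-cKO rise was 10.54 without R0D3 replicate 1, 9.08 without R0D3 replicate 2 and 9.10 without R40D3 replicate 2. Without both LysM-cKO replicate 2 libraries it was 8.57. Adjusted p stayed at or below 0.0108 under every alternative in both genotypes.

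Mmp14 is anchored in the cell membrane, cuts fibrillar collagen and activates the precursor of Mmp2. It was at 50.3 and 58.0 CPM in WT R0D3 and at 678 and 846 CPM in WT R40D3. LysM-cKO cultures had 50.1 and 24.5 CPM at R0D3 and 395 and 561 CPM at R40D3. The groups did not overlap in either genotype, and the difference between the 2 R0D3 libraries of LysM-cKO was small beside the rise. That rise was 14.1-fold in WT (log2 3.82, SE 0.342, adjusted p 0.000811) and 12.8-fold in LysM-cKO (log2 3.68, SE 0.343, adjusted p 0.00147). In LysM-cKO the log2 rise was 4.28 without R0D3 replicate 1 and 2.96 without both replicate 2 libraries, and it was called in each case.

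Mmp12 led the 7 Mmp genes at R0D3, per kb of exonic length as well as in CPM, with 1130 and 845 CPM in WT and 829 and 856 CPM in LysM-cKO. The R40D3 level was 145 and 100.2 CPM in WT, and 106 and 91.7 CPM in LysM-cKO. All 4 R40D3 libraries lay below all 4 R0D3 libraries, and the genotypes overlapped. The log2 change was −3.01 (SE 0.215) in WT and −3.09 (SE 0.216) in LysM-cKO, with adjusted p of 0.000391 and 0.000499.

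Mmp13, collagenase-3, was a low-abundance gene of these cultures. It was at 12.7 and 7.96 CPM in WT R0D3 and at 2.20 and 1.41 CPM in WT R40D3. The LysM-cKO levels were 10.5 and 10.9 CPM and then 2.86 and 0.739 CPM. It fell in both genotypes without overlap, with a log2 change of −2.50 (SE 0.464, adjusted p 0.0109) in WT and −2.52 (SE 0.461, adjusted p 0.0163) in LysM-cKO. Both calls depended on single libraries. The WT call was lost without WT R0D3 replicate 1 (adjusted p 0.0812) and without WT R40D3 replicate 2 (0.083), and the LysM-cKO call without LysM-cKO R0D3 replicate 2 (0.0711), without both LysM-cKO replicate 2 libraries (0.0798) and in a fit of the 4 compared libraries alone (0.0617). Over all alternatives adjusted p ran from 1.93e-05 to 0.083 in WT and from 2.04e-05 to 0.0798 in LysM-cKO, and without LysM-cKO R40D3 replicate 1 the log2 change was −3.84.

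Mmp8, collagenase-2, is best known as a granule enzyme of neutrophils. It was at 34.4 and 52.1 CPM in WT R0D3 and at 25.6 and 12.8 CPM in WT R40D3. LysM-cKO cultures had 62.7 and 105.6 CPM at R0D3 and 27.8 and 22.9 CPM at R40D3. R0D3 was above R40D3 without overlap in both genotypes. It fell in LysM-cKO, with a log2 change of −1.73 (SE 0.37, adjusted p 0.028), which was not called without LysM-cKO R0D3 replicate 2, R40D3 replicate 1 or R40D3 replicate 2 (adjusted p 0.136, 0.0584 and 0.128) or without both replicate 2 libraries (0.276), in a range of 6.54e-06 to 0.276 over all alternatives. The WT difference was −1.16 (SE 0.377, adjusted p 0.0771). edgeR called it with the replicate block (adjusted p 0.0433) and with the 4 compared libraries alone (0.0469), and DESeq2 called it without a block (0.00402). With single libraries left out, the WT log2 difference ran from −1.79 to −0.798. Neutrophil markers divided the libraries in another way. The 10 of them, among which Ly6g had 0 to 3 counts, summed to 431.7 and 551.4 CPM in the replicate 1 libraries of WT and to 89.9 to 223.1 CPM in the other 6. The part of neutrophil content in the Mmp8 level was not tested.

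Mmp19, a secreted enzyme that cuts basement membrane proteins, was at 50.04 and 43.9 CPM in WT R0D3 and at 37.5 and 31.9 CPM in WT R40D3. In LysM-cKO it was at 57.3 and 49.2 CPM and then at 43.4 and 39.5 CPM. R40D3 was lower without overlap in both genotypes, by a small amount. The log2 differences of −0.44 (SE 0.13, adjusted p 0.0598) and −0.36 (SE 0.129, adjusted p 0.138) did not pass the test, and both passed with the replicate block (adjusted p 0.00306 in WT and 0.0105 in LysM-cKO). The WT difference also passed by DESeq2 (0.0495) and with the 4 compared libraries alone (0.0493). Over all alternatives adjusted p ran from 0.00306 to 0.295 in WT and from 0.0105 to 0.373 in LysM-cKO.

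**Figure D2:**
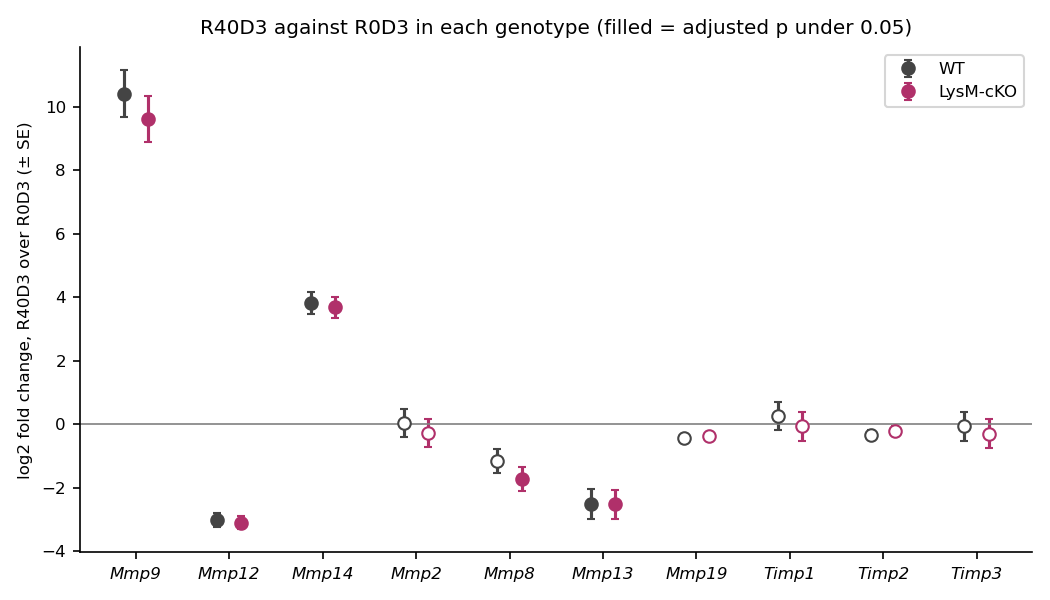
Log2 fold change of R40D3 over R0D3 (± SE) for the 10 genes in WT and LysM-cKO cultures; filled points are called by edgeR's quasi-likelihood test. Mmp9 (10.41 and 9.62) and Mmp14 (3.82 and 3.68) stand above 0, Mmp12 and Mmp13 below it, and Mmp2 and the 3 Timp genes near it.

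Mmp2, gelatinase A, and the 3 inhibitors showed no call between R0D3 and R40D3 without the replicate block. Mmp2 was at 29.2 and 30.4 CPM in WT R0D3 and at 30.7 and 31.1 CPM in WT R40D3 (log2 0.05, SE 0.437, adjusted p 0.955). Timp1, a secreted inhibitor of most metalloproteinases, was at 40.6 and 39.7 CPM and then at 45.9 and 50.2 CPM (log2 0.26, SE 0.432, adjusted p 0.749). Timp3, the inhibitor that stays bound to the matrix, was at 26.5 and 44.2 CPM and then at 25.8 and 42.1 CPM (log2 −0.06, SE 0.453, adjusted p 0.951). The 2 WT libraries of each culture were close together for Mmp2 and Timp1, and for Timp3 replicate 1 was below replicate 2 in both cultures. In LysM-cKO the log2 differences were −0.27 for Mmp2, −0.07 for Timp1 and −0.29 for Timp3, with adjusted p of 0.78, 0.952 and 0.767. With standard errors of 0.432 to 0.458, small changes in either direction were not detectable. These errors come from the fit over all 8 culture libraries together, so they do not measure the spread of the WT libraries alone.

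Timp2, which inhibits Mmp2 and also takes part in its activation by Mmp14, was the most abundant inhibitor in the cultures, per kb as well as in CPM. It was at 1341 and 1161 CPM in WT R0D3 and at 1097 and 901 CPM in WT R40D3. In LysM-cKO it was at 1379 and 1209 CPM and then at 1188 and 1040 CPM. R40D3 lay below R0D3 without overlap in both genotypes. The WT difference was −0.32 (SE 0.15, adjusted p 0.196) and was called only in the replicate block fit (0.0166) in a range of 0.0166 to 0.586 over the alternatives run. The LysM-cKO difference was −0.22 (SE 0.15, adjusted p 0.443) and was not called under any alternative.

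Per kilobase of exonic length, which allows levels to be compared between genes, Timp2 led at R0D3 and Mmp9 at R40D3. At WT R0D3, Timp2 stood at 321 ± 32.8 CPM per kb (SD, n = 2 here and in the other levels per kb), Mmp12 at 136 ± 27.8 and Timp1 at 45.2 ± 0.742. Mmp8, Mmp19, Mmp14 and Mmp2 followed between 17.8 and 8.84 CPM per kb, and Timp3, Mmp13 and Mmp9 came last at 4.34 ± 1.53, 3.86 ± 1.25 and 2.55 ± 1.69. Neighbours Mmp8 and Mmp19, Mmp14 and Mmp2, and the last 3 genes differed by less than their spread.

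At WT R40D3, Mmp9 stood at 3492 ± 727 CPM per kb, Timp2 at 256 ± 35.5, Mmp14 at 128 ± 19.9 and Timp1 at 54.1 ± 3.46. Mmp12 was at 17.0 ± 4.41, Mmp19, Mmp2, Mmp8 and Timp3 lay between 9.82 and 4.17 CPM per kb, and Mmp13 was last at 0.674 ± 0.21. From Mmp19 to Timp3, each gene differed from the next by no more than the larger of their SDs. The 7 Mmp genes summed to 0.499 and 0.534 times the 3 Timp genes, per kb, in the WT R0D3 libraries and to 9.35 and 14.3 times in WT R40D3. In LysM-cKO that ratio was 0.449 and 0.567 at R0D3 and 4.33 and 9.35 at R40D3. All 4 R0D3 libraries were below 1 and all 4 R40D3 libraries above it, and this ratio of RNA levels is not a ratio of protein or of activity. Mmp9 alone made up most of the Mmp sum at R40D3, with 2978 of 3143 and 4006 of 4186 CPM per kb in WT. In LysM-cKO it held 1429 of 1543 and 2563 of 2694 CPM per kb. The rise of the ratio above 1 therefore rested on Mmp9.

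The chromosome 9 cluster holds 10 Mmp genes over 427 kb, of which 5 were tested in the cultures. All 5 had a negative log2 difference in both genotypes, as had 6841 and 6847 of all 14030 genes in WT and LysM-cKO. Of the 5, 3 were called lower in WT and 4 in LysM-cKO, against 5.52% and 3.15% of all genes. The called genes were Mmp13, Mmp12 and Mmp27 in both genotypes and Mmp8 in LysM-cKO. Mmp27, a little-studied family member next to Mmp8, was at 98.3 and 67.8 CPM in WT R0D3 and at 52.0 and 37.0 CPM in WT R40D3. LysM-cKO cultures had 97.9 and 96.7 CPM and then 57.5 and 47.0 CPM. It fell in each genotype, with a log2 change of −0.90 (SE 0.216 and 0.214, adjusted p 0.0284 and 0.0403). Mmp10, stromelysin-2, with at most 20 counts in a library, was not called. The other 5 genes of the cluster, Mmp1b, Mmp3, Mmp1a, Mmp20 and Mmp7, had 0 to 2 counts in each culture library and were not tested.

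**Figure D3:**
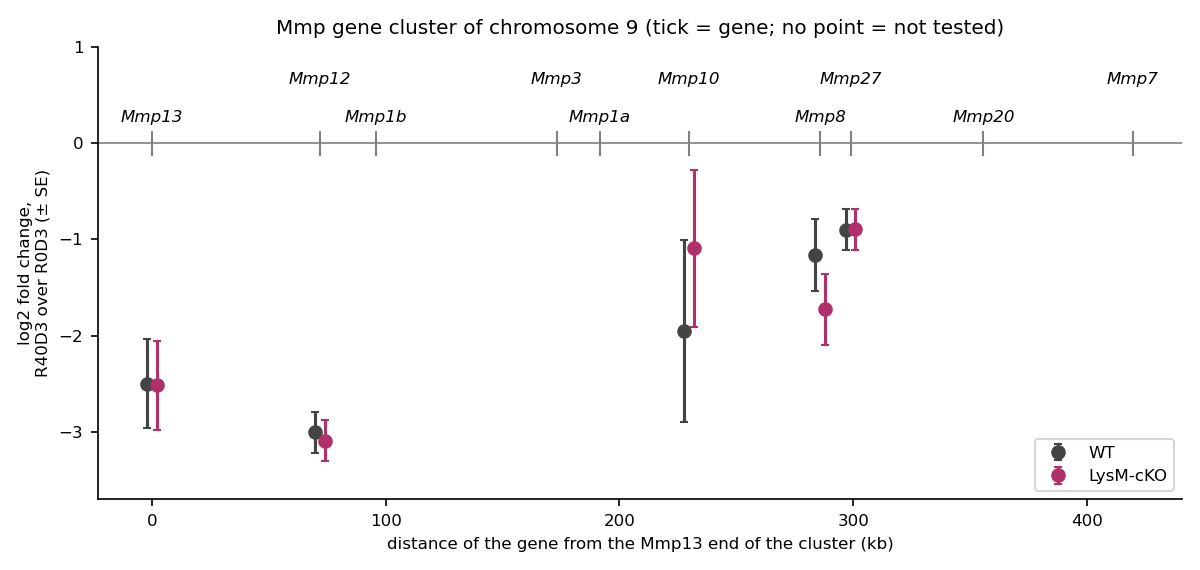
Log2 fold change of R40D3 over R0D3 (± SE) for the tested genes of the Mmp cluster on chromosome 9, against their distance in kb from the Mmp13 end; ticks mark all 10 genes. The 5 tested genes are below 0 in both genotypes, with Mmp12 lowest.

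Other genes of pericellular proteolysis were read from lists of related genes, whose counts stand beside 11.4% of all genes called higher and 5.52% lower in WT, and 6.99% and 3.15% in LysM-cKO. Of 16 other Mmp genes, 7 were tested, and Mmp27 was called lower in both genotypes with none called higher. Of 10 genes of plasminogen activation and precursor processing, 8 were tested and 2 fell in both genotypes. These were Plau, the urokinase protease, with a log2 change of −1.26 (SE 0.136, adjusted p 0.00152) in WT and −1.18 (SE 0.135, adjusted p 0.00311) in LysM-cKO, and Plaur, its receptor, with −0.81 (SE 0.186, adjusted p 0.0241) and −0.92 (SE 0.188, adjusted p 0.0239). Of the 3 surface partners, Lrp1, an endocytic receptor that clears Mmp9 and other proteases, fell in both genotypes (−1.10 and −1.17, adjusted p 0.00939 and 0.0118). Bsg, the cell surface inducer of metalloproteinases also called basigin, rose in WT (0.49, SE 0.125, adjusted p 0.0361) and was at 0.23 (SE 0.125, adjusted p 0.314) in LysM-cKO.

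Of 12 ADAM and ADAMTS proteases, all tested, 1 rose and 3 fell in WT and 2 fell in LysM-cKO; the 1 of 12 that rose in WT is near the 11.4% of all genes that did. Adam8, a shedding protease of myeloid cells, was at 935 and 920 CPM in WT R0D3 and at 381 and 278 CPM in WT R40D3. It fell in both genotypes, with a log2 change of −1.49 (SE 0.194, adjusted p 0.00293) in WT and −1.53 (SE 0.194, adjusted p 0.0044) in LysM-cKO. Adam15 also fell (log2 −0.68 and −0.59, adjusted p 0.0167 and 0.0408). Adamts4, an aggrecan-cutting enzyme, rose in WT from 1.69 and 1.37 CPM to 6.69 and 7.02 CPM (log2 2.16, SE 0.375, adjusted p 0.00857). In LysM-cKO its log2 difference was 1.36 (adjusted p 0.0723), called with the replicate block (0.0301). Reck, a membrane-anchored inhibitor of Mmp9 and Mmp14, was the only tested gene of the 2 other inhibitors. It had 7 to 30 counts in each culture library and was not called in WT (0.42, adjusted p 0.649). In LysM-cKO it was at −1.42 (SE 0.504, adjusted p 0.135) and was called with the replicate block (adjusted p 0.0309).

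LysM-cKO and WT cultures were then compared within R40D3 and within R0D3, which asks how loss of Impdh2 in myeloid cells bears on these genes. No gene of the 10 was called at R40D3, where edgeR called 0.0143% of all genes, none of the 10 had an unadjusted p under 0.05 (7.47% of all genes did), and DESeq2 also called 0 of them. The groups did not overlap for 5 genes. Mmp9, Mmp14, Mmp2 and Timp1 were lower in LysM-cKO (18.9% of all genes were) and Mmp19 was higher (19.7% were). The median log2 difference over the 10 genes was −0.34, beside −0.01 over all genes tested.

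Mmp9 at R40D3 was at 5057 and 9072 CPM in LysM-cKO and at 10540 and 14180 CPM in WT. Both LysM-cKO libraries were below both WT libraries, and within each replicate number the log2 difference was −1.06 and −0.64. The fitted difference of −0.81 (SE 0.49, adjusted p 0.683) was within the spread between libraries, and it ran from −0.42 without LysM-cKO R40D3 replicate 1 to −1.31 without LysM-cKO R40D3 replicate 2. Mmp14 was lower in the same way, with a log2 difference of −0.67 (SE 0.304, adjusted p 0.648) that ran from −0.42 to −0.97 without those same libraries.

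Osteoclast markers moved with both genes. The summed level of the 10 osteoclast markers was 8214 and 15910 CPM in the LysM-cKO R40D3 libraries and 15930 and 24820 CPM in WT. All 10 had a negative log2 difference (median −0.64). None was called by edgeR without the block or by DESeq2, and 4 had an unadjusted p under 0.05 (7.47% of all genes did). With the replicate block edgeR called 2 of the 10 lower, Oscar (adjusted p 0.00282) and Car2 (0.0236), among 30 genes called in all, and none of the 10 Mmp and Timp genes. Mmp9 was at 61.6 and 57.0 CPM per 100 CPM of these markers in LysM-cKO and at 66.2 and 57.1 in WT. Mmp14 was at 4.81 and 3.52 in LysM-cKO and at 4.26 and 3.41 in WT. On this scale the genotypes overlapped for both genes. The marker sum was weighted by Acp5 and Ctsk, the most abundant of the 10. Their R40D3 means were 7523 and 9542 CPM in WT and 4327 and 5564 CPM in LysM-cKO. The part of osteoclast content in the Mmp9 and Mmp14 levels was not tested.

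Mmp2, Timp1 and Timp3 followed a split of libraries that the groups do not explain. The 2 replicate 2 libraries of LysM-cKO, 1 from each culture, stood below the other 6 for all 3 genes. Mmp2 was at 15.6 and 11.3 CPM in them and at 29.1 to 33.5 CPM elsewhere. Timp1 was at 19.2 and 17.0 CPM against 39.7 to 50.2 CPM, and Timp3 at 22.5 and 16.3 CPM against 25.8 to 44.2 CPM. The split was less clear for Timp3, because the replicate 1 libraries of WT were also low, at 26.5 and 25.8 CPM. The other 7 genes overlapped between these 2 libraries and the rest.

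The 11 stromal fibroblast markers, summed, were split in the same way, at 628.7 and 519.8 CPM in those libraries and at 1529 to 1946 CPM in the other 6. Col1a1, the main collagen gene of fibroblasts and osteoblasts, had 4398 and 3650 counts there against 10379 to 16187 elsewhere. Lum had 0 to 7 counts and Dcn 0 to 23 in any culture library. Of the 10 stromal markers tested at R40D3, 9 had a negative log2 difference between LysM-cKO and WT. edgeR and DESeq2 called none, and 2 had an unadjusted p under 0.05 (7.47% of all genes did). Other marker sums were also lowest in those libraries. Neutrophil markers summed to 119.2 and 89.9 CPM there against 126.6 to 551.4 CPM, limb mesenchyme markers to 17.8 and 13.3 CPM against 30.8 to 46.4 CPM, and chondrogenic markers to 18.3 and 15.8 CPM against 32.7 to 53.1 CPM. Erythroid markers were at 0 there and at most 0.582 CPM elsewhere. Macrophage marker sums overlapped between those 2 libraries (7256 and 7907 CPM) and the rest (7387 to 8826 CPM). The part of any of these cell types in the levels of Mmp2, Timp1 and Timp3 was not tested.

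**Figure D4:**
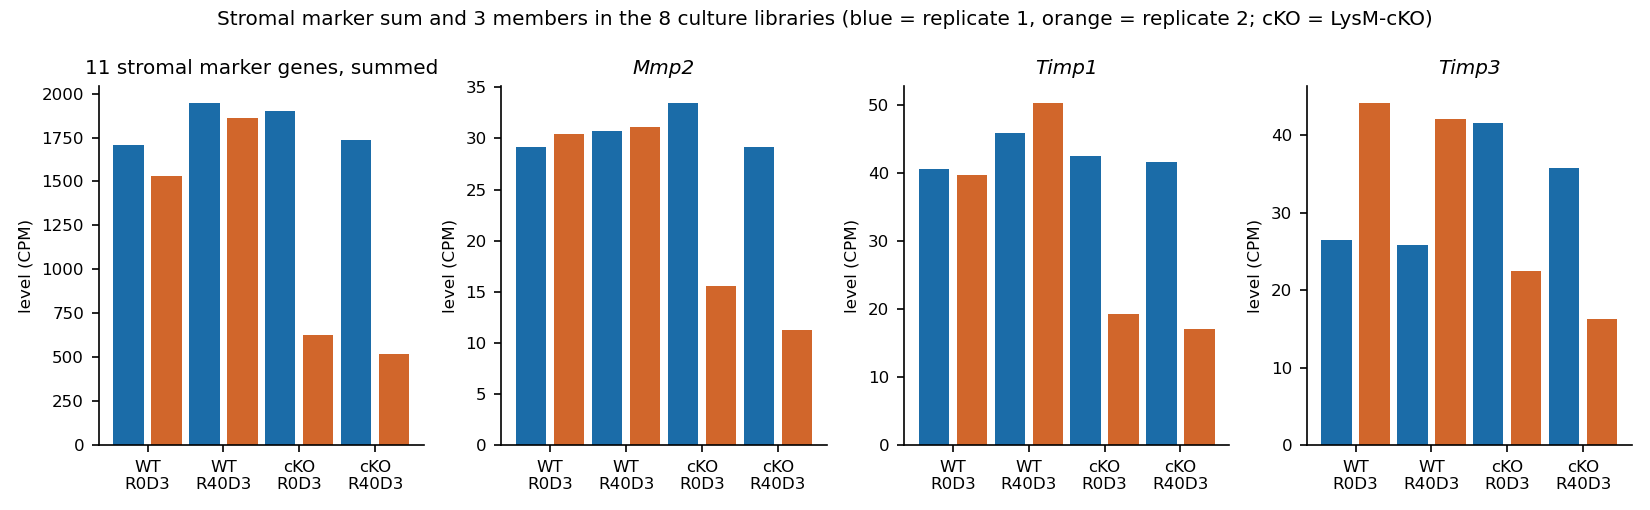
Summed level of 11 stromal marker genes and levels of Mmp2, Timp1 and Timp3 (CPM, axes from 0) in the 8 culture libraries; each bar is 1 library, coloured by replicate number. The replicate 2 libraries of LysM-cKO have the lowest bar in all 4 panels, for example 15.6 and 11.3 CPM of Mmp2 against 29.1 to 33.5 CPM in the other 6.

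Those 2 libraries were chosen after seeing the data and lay below the other 6 for these 3 genes. Leaving them out therefore had to raise each genotype difference, and it left no replicate in the LysM-cKO groups. At R40D3 the log2 difference was −0.60 (SE 0.445, adjusted p 0.716) for Mmp2, −0.71 (SE 0.437, adjusted p 0.686) for Timp1 and −0.37 (adjusted p 0.833) for Timp3. Without both replicate 2 libraries of LysM-cKO it was −0.10, −0.22 and 0.06. At R0D3 it was −0.28, −0.38 and −0.14, and 0.17, 0.08 and 0.24 without them. Leaving them out turned the sign of Timp3 at R40D3 and of all 3 genes at R0D3. That shift is no test of the split, because its direction was set by the choice of libraries.

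The remaining genes were not called between genotypes at R40D3 either. Mmp12 was at 106 and 91.7 CPM in LysM-cKO and at 145 and 100.2 CPM in WT (log2 −0.32, SE 0.203, adjusted p 0.69), and the groups overlapped. Mmp19 was at 43.4 and 39.5 CPM against 37.5 and 31.9 CPM, the 1 gene of the 10 higher without overlap (log2 0.26, SE 0.13, adjusted p 0.656). Mmp8, Mmp13 and Timp2 had log2 differences of 0.40 (SE 0.381), 0.03 (SE 0.592) and 0.16 (SE 0.15) and were not called. With the standard errors of Mmp8 and Mmp13, small changes in either direction were not detectable.

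At R0D3 none of the 10 genes was called by edgeR, which called 0.0143% of all genes, or by DESeq2; 1 had an unadjusted p under 0.05 (4.42% of all genes did). This was Mmp8, at 62.7 and 105.6 CPM in LysM-cKO and at 34.4 and 52.1 CPM in WT. It was higher in LysM-cKO without overlap (17.5% of all genes were), with a log2 difference of 0.96 (SE 0.359, unadjusted p 0.0299, adjusted p 0.997). Mmp14 was lower without overlap (14.8% of genes were), at log2 −0.54 (SE 0.322, adjusted p 0.997), with nearly equal values in the replicate 1 libraries (50.1 and 50.3 CPM); without both LysM-cKO replicate 2 libraries the difference was −0.11. Mmp9 was at 13.1 and 4.73 CPM in LysM-cKO and at 13.2 and 4.79 CPM in WT, so that same-numbered libraries of the 2 genotypes were nearly equal.

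Whether the change from R0D3 to R40D3 differed between genotypes was tested as an interaction. It was called for none of the 10 genes and for 0% of the 14030 genes by edgeR; 248 genes (1.77%) and none of the 10 had an unadjusted p under 0.05, and DESeq2 called none. The interaction of Mmp9 was −0.79 in log2 units (SE 0.797) and that of Mmp14 was −0.14, against rises of 9.62 to 10.41 and 3.68 to 3.82 within the genotypes. With that standard error, a difference of this size in Mmp9 was not detectable.

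Neither edgeR nor DESeq2 called a gene of the related lists in any comparison of genotypes in the cultures. At R40D3, 7.47% of all genes had an unadjusted p under 0.05. So had 3 of 8 tested plasminogen activation genes, 1 of 3 surface partners and 1 of 12 ADAM and ADAMTS proteases. At R0D3 these counts were 1, 2 and 2, against 4.42% of all genes. For the interaction Reck alone had such a p, against 1.77% of all genes. At R40D3 the smallest unadjusted p of each list belonged to Plau (log2 0.46, adjusted p 0.648), Adam10 (0.31, 0.648), Lrp1 (0.51, 0.648), Mmp23 (−1.11, 0.648) and Reck (−0.85, 0.69). At R0D3 they were Adam9 (0.33), Lrp1 (0.59), Plau (0.38), Reck (0.9955) and Mmp27 (0.23), each with an adjusted p of 0.997. For the interaction they included Reck (−1.84), Cd44 (−0.26), Adamts4 (−0.80) and Mmp11 (−0.61), each with an adjusted p of 1.

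In E12.5 forelimbs the question was how loss of Impdh2 in limb mesenchyme bears on the same genes. The forelimb had a different set of leading genes: Mmp2, Timp2 and Mmp14 were abundant, and Mmp12, Mmp13 and Mmp8 were at or near 0. Per kb, Mmp2 stood at 55.1 ± 3.66 CPM in WT, Timp2 at 35.1 ± 5.05, Mmp14 at 20.4 ± 1.60, Timp3 at 10.4 ± 2.24 and Timp1 at 8.55 ± 2.59, with only Timp3 and Timp1 within their spread. Mmp9 was at 0.423 CPM per kb. Mmp genes summed to 1.30 to 1.65 times the Timp genes, per kb, in the 4 libraries. Forelimb and culture counts were scaled separately, so these levels describe each set on its own.

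Of the 10 genes, 7 passed the filter on low counts in the forelimb. Mmp12 had 0 counts in all 4 libraries, which allows up to 0.0432 to 0.104 CPM in a library, for counting error only. Mmp13 had 2 and 2 counts in WT and 0 and 0 in Prx-cKO, and Mmp8 had 6 and 11 counts in WT and 8 and 6 in Prx-cKO. At these counts no difference was detectable.

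None of the 7 tested genes was called between Prx-cKO and WT, where edgeR called 0% of all genes; 1 of the 7 and 10.5% of all genes had an unadjusted p under 0.05, and DESeq2 called 390 genes and none of the 7. The groups did not overlap for 5 of the 7: Timp1, Mmp2 and Mmp9 were higher in Prx-cKO (22.2% of all genes were) and Timp3 and Mmp14 lower (21% were). The median log2 difference over the 7 was −0.15, beside −0.03 over all genes tested.

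Timp1 was at 12.03 and 15.03 CPM in Prx-cKO and at 9.21 and 5.96 CPM in WT. Both Prx-cKO libraries were above both WT libraries. The log2 difference was 0.85 (SE 0.306, unadjusted p 0.0372, adjusted p 0.469), and leaving out WT replicate 1 gave 1.15 and leaving out WT replicate 2 gave 0.57. Counts of Xist and Ddx3y put WT replicate 1 and Prx-cKO replicate 2 on a female-type side (92566 and 139968 Xist counts, 0 of Ddx3y) and the other 2 on a male-type side (114 and 10 Xist counts, 4579 and 1152 of Ddx3y). Within the female-type pair Timp1, a gene of the X chromosome, was at 9.21 CPM in WT and 15.03 CPM in Prx-cKO, and within the male-type pair at 5.96 and 12.03 CPM. With this type as a term the log2 difference was 0.86 (SE 0.32, adjusted p 0.908).

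Mmp2 was at 221 and 236 CPM in Prx-cKO and at 195 and 177 CPM in WT, and Mmp14 at 98.1 and 94.7 CPM against 114.7 and 128.2 CPM. The gelatinase was a little higher and its activator a little lower in Prx-cKO, each without overlap, at log2 0.30 (SE 0.145, adjusted p 0.538) and −0.33 (SE 0.146, adjusted p 0.506). Timp3 was at 59.6 and 65.5 CPM in Prx-cKO and at 71.7 and 97.5 CPM in WT (log2 −0.44, SE 0.2, adjusted p 0.52). Leaving out WT replicate 1 gave −0.68 and leaving out WT replicate 2 gave −0.19. Timp2 was at 114.7 and 131.1 CPM against 122.8 and 150.7 CPM (log2 −0.15, SE 0.173), and the groups overlapped. Mmp9, at 1.98 and 1.82 CPM in Prx-cKO and 1.49 and 1.51 CPM in WT (log2 0.34, SE 0.365, adjusted p 0.786), and Mmp19, at 0.591 and 0.568 CPM and 0.449 and 0.989 CPM, were both near the low end.

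**Figure D5:**
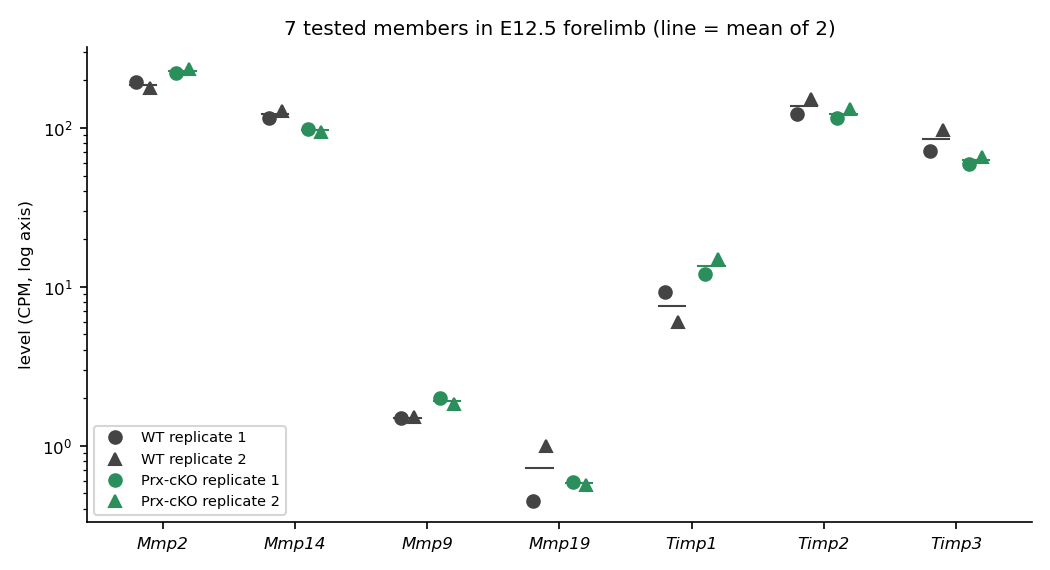
Level of the 7 tested genes (CPM, log axis) in the 4 forelimb libraries; circles and triangles are replicates 1 and 2 and lines are means of 2. Timp1 is higher in both Prx-cKO libraries (12.03 and 15.03 CPM) than in both WT libraries (9.21 and 5.96 CPM), and no gene passed the test.

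Marker sums of several cell types lay apart in the forelimb groups. The 6 chondrogenic markers summed to 356.9 and 298.1 CPM in Prx-cKO and to 809.8 and 905.8 CPM in WT. The 6 limb mesenchyme markers summed to 1040 and 1126 CPM against 1419 and 1563 CPM. Endothelial markers summed to 159.9 and 164.7 CPM against 117.6 and 124.4 CPM. All 6 of them were higher without overlap, as were 22.2% of all genes. The 6 myeloid markers summed to 53.8 and 48.1 CPM against 30.1 and 33.9 CPM. The 8 macrophage markers, some of them shared with the myeloid list, went the other way in sum, with 82.2 and 69.4 CPM against 84.5 and 87.5 CPM. That sum was weighted by Mertk, the most abundant of the 8. Gene by gene, 5 of the 7 tested macrophage markers had a positive log2 difference and 2 a negative one (median 0.705). Of these, DESeq2 called Csf1r higher (15.8 and 16.1 CPM against 7.21 and 8.58 CPM) and Mertk lower (32.8 and 26.7 CPM against 57.8 and 59.6 CPM), edgeR called none, and 4 had an unadjusted p under 0.05. Skeletal muscle markers summed to 740.9 and 364.8 CPM against 267.4 and 267.9 CPM. No chondrogenic, limb mesenchyme, endothelial, myeloid or muscle marker was at 0 in any library. edgeR called none of them. An unadjusted p under 0.05 was reached by 5 chondrogenic, 3 limb mesenchyme, 3 endothelial, 2 myeloid and 5 muscle markers, of 6 each. Of all genes, 10.5% reached it. DESeq2 called 5 chondrogenic and 3 limb mesenchyme markers lower and 1 myeloid (Csf1r) and 1 muscle marker (Myod1) higher. The 11 stromal fibroblast markers summed to 2127 and 2084 CPM in Prx-cKO against 2307 and 2269 CPM in WT, also without overlap. Within that list DESeq2 called Pdgfra lower and Thy1 higher, edgeR called none, and 2 had an unadjusted p under 0.05. The part of cell composition in the Timp1, Mmp2, Mmp14 and Timp3 values was not tested.

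Neither edgeR nor DESeq2 called a gene of the related lists in the forelimb. An unadjusted p under 0.05 was reached by 10.5% of all genes. It was also reached by 3 of 9 tested plasminogen activation genes, 1 of 7 other Mmp genes and 1 of 12 ADAM and ADAMTS genes. The smallest unadjusted p of each list belonged to Plaur, the urokinase receptor (log2 1.57, SE 0.376, adjusted p 0.414), Mmp11 (−0.60, adjusted p 0.446), Adamts5 (−0.9955, adjusted p 0.469), Reck (−0.30, adjusted p 0.539) and Bsg (0.29, adjusted p 0.543). Plaur was at 2.64 and 2.72 CPM in Prx-cKO and at 0.827 and 0.961 CPM in WT. Mmp11, stromelysin-3, a stromal enzyme of developing tissues, was at 53.8 and 41.9 CPM in Prx-cKO and at 68.2 and 76.5 CPM in WT. In both cases the groups did not overlap.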

How the data were processed

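RNA of 4 forelimb and 8 culture libraries was analysed; per the labels' protocols, it was extracted with TRIzol and an mRNA library kit was used. The values are the read counts per gene that the authors deposited, as whole numbers without scaling, in 1 table for the forelimb and 1 for each culture replicate number. The submitters' processing notes name FastQC 0.11.2, Trimmomatic 0.36, HISAT2 2.1.0, DESeq2 1.12.4 and the build GRCm38, with no role or order; the counting tool, annotation and use of strand are not given in the sources used here. Symbols matched 99.5% of culture and 99.6% of forelimb identifiers. Genes passing filterByExpr were fitted with TMM scaling and the quasi-likelihood test of edgeR 4.0.16 (R 4.3.3, two-sided, Benjamini-Hochberg over all genes), as group means over the 8 culture libraries together or the 4 forelimb libraries alone. The tests were checked on simulated data. Levels are CPM with TMM-scaled library sizes. The SE was taken from the test as |log2 fold change| / sqrt(F). Exonic lengths came from GENCODE M21. Intervals and floors (3 counts) cover counting error only; PCR copies were not marked, so reads need not stand for separate molecules. Alternatives were DESeq2 1.42.0, other scalings, no filter, the legacy fit, the compared libraries alone, a replicate block, leaving out each library and, chosen after seeing the data, leaving out both LysM-cKO replicate 2 libraries and a female-type or male-type term. Deviations of same-numbered culture libraries correlated (r 0.343 to 0.609 across 14030 genes, 6 pairs of groups), so the numbers were taken to pair the cultures. The genes, related lists, markers and the naming rule (called genes of each list, up to 3 with the smallest p, or the 1 with the smallest p) were chosen with earlier results of these data known. 1 result of the related lists is not reported here.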

Additional observations from a re-analysis of the deposited data

How the results depend on the processing

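With 2 libraries per group, differences within the spread between libraries could not be called, and depth limited the genes with few counts, such as Mmp13 and Reck. Over all alternatives, 620 log2 values of single genes kept direction and side of the threshold, 59 turned direction, 9 lost a call and 9 gained one. With the replicate block, which pairs same-numbered libraries, the WT comparison of R40D3 with R0D3 called 7 of the 10 genes in place of 4 and 3977 genes in all in place of 2367; in LysM-cKO 2983 genes in place of 1422. The forelimb numbers, shared by 1 pair of groups (r 0.261 across 19987 genes), were not taken as a pairing, and the block there called 0 of the 7 genes, as without it. Without both LysM-cKO replicate 2 libraries, chosen after seeing the data, the LysM-cKO comparison called 3 of the 10 genes in place of 5 and 311 genes in all; the 4 compared libraries alone called 533. DESeq2 called 390 genes in the forelimb against 0, and 23 and 7 between culture genotypes against 2 and 2; the cause was not tested. Leaving out 1 library gave 3 to 5 genes called in each R40D3 against R0D3 comparison and 0 in every other.

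Direction turned only for log2 values that were not called. Library size alone gave 0.0072 for Mmp9 between genotypes at R0D3 and 0.0061 for the Mmp13 interaction, which was also 0.0061 without the filter. Without both LysM-cKO replicate 2 libraries, Timp3 was 0.064 at R40D3; at R0D3 Mmp9 was 0.53, Mmp2 0.17, Timp1 0.077 and Timp3 0.24; the interaction was 0.021 for Mmp12 and 0.61 for Mmp13. Leaving out 1 library gave these ranges. R40D3 against R0D3 ran for Timp3 in WT from −0.50 to 0.35, and in LysM-cKO from −1.13 to 0.37 for Mmp2, −0.86 to 0.60 for Timp1 and −0.98 to 0.21 for Timp3. Between genotypes at R40D3, Mmp8 ran from −0.0024 to 0.99, Mmp13 from −1.27 to 0.63 and Timp3 from −1.03 to 0.064. At R0D3, Mmp9 ran from −0.96 to 0.90, Mmp2 from −0.96 to 0.16, Mmp13 from −0.25 to 0.43, Timp1 from −1.09 to 0.075, Timp2 from −0.075 to 0.16 and Timp3 from −0.68 to 0.27. The interaction ran from −1.71 to 0.16 for Mmp9, −0.31 to 0.21 for Mmp12, −0.56 to 0.50 for Mmp14, −1.14 to 0.36 for Mmp2, −0.95 to 0.042 for Mmp8, −1.30 to 0.60 for Mmp13, −0.027 to 0.22 for Mmp19, −1.09 to 0.38 for Timp1, −0.0035 to 0.26 for Timp2 and −0.88 to 0.30 for Timp3. In the forelimb, Mmp19 ran from −0.81 to 0.37 and Timp2 from −0.33 to 0.0092. The cause was not tested.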

Other observations

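For 3 of the genes that changed most between R0D3 and R40D3, the genes with the most similar pattern over the 8 culture libraries were found by Pearson's r of log2 CPM among 9697 genes. The libraries fall into 2 clusters by culture, so r is high for any gene that differs strongly between them, and it is given as a description only. For Mmp9 these were Nyap2 (r 0.9992), Itga2 (0.9991) and Jarid2 (0.9989). For Mmp14 they were Kank1 (0.9986), Akr1c18 (0.9986) and St5 (0.9973). For Mmp12 they were Mamdc2 (0.9968), Bcl2a1b (0.9948) and AU022793 (0.9926).

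The 7 Mmp genes together took 1.14% and 1.51% of all counts in the WT R40D3 libraries and 0.581% and 0.994% in the LysM-cKO R40D3 libraries. In the 4 R0D3 libraries they took 0.103% to 0.130%. Mmp9 alone took 1.05% and 1.41% in WT R40D3 and 0.519% and 0.920% in LysM-cKO R40D3. Mmp25, a membrane-anchored family member, had 17 and 20 counts in the replicate 1 libraries of WT cultures and 0 to 7 in the other 6.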
